A study of Mus musculus with 6 samples.

Results

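Insulin and the insulin-like growth factors act through receptor tyrosine kinases whose substrates recruit phosphoinositide 3-kinase (PI3K); the lipid it makes brings the kinases PDK1 and Akt to the membrane. Akt then restrains glycogen synthase kinase 3 and the FoxO transcription factors. It also lifts the restraint that the TSC complex places on the kinase mTOR, which raises protein synthesis through S6 kinase. In the brain the pathway is known for roles in neuronal growth, synaptic protein synthesis and energy sensing. The genes described here are 28 components of this pathway chosen by name, from the ligand Igf1 to the S6 kinase gene Rps6kb1. All 28 were found among the 26264 gene symbols of the deposited tables, and all 28 were among the 14739 genes that passed the filter on low counts.

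The tissue was the dissected basolateral amygdala of male mice, with 3 unstressed controls and 3 mice under chronic restraint stress, an immobilisation applied repeatedly. Each animal gave 1 library of total RNA depleted of ribosomal RNA, and the submitters call the animals of a group biological replicates. The sources used here do not state strain, age or the length of restraint. The question was whether transcripts of this pathway differ between stressed and unstressed amygdala.

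The libraries held 9859449 to 10233706 counts in genes, and the 28 genes together took 27781 to 28864 of them per library. Markers of excitatory neurons were abundant in every library (1759 to 2536 CPM, that is, counts scaled to a common library size, summed over 5 genes). Some libraries stood apart in tissue markers. Summed levels of 10 striatal and central amygdala markers were 866 to 1786 CPM in controls, 260 CPM in stress 1 and 828 and 970 CPM in stress 2 and stress 3; Isl1 had 0 counts in stress 1. The 6 choroid plexus markers summed to 2349 CPM in control 1, 4163 CPM in control 2 and 6007 CPM in stress 2, and to only 39.0 CPM in control 3, 12.4 CPM in stress 1 and 22.2 CPM in stress 3. Summed levels of 8 oligodendrocyte markers were 2186 to 3448 CPM in controls and 1709 to 2447 CPM under stress. In bulk tissue, fewer cells of a type and less RNA per cell cannot be told apart.

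Transcripts of the pathway covered a wide range of levels in the unstressed amygdala. Per kilobase of exon, the kinase genes Gsk3a (48.3 ± 2.05 CPM per kilobase in controls, SD, n = 3), Akt1 (42.6 ± 1.64), Pdpk1 (34.2 ± 1.48) and Gsk3b (33.5 ± 2.71) stood highest. The PI3K regulatory subunit genes Pik3r1 (29.0 ± 0.455) and Pik3r2 (28.6 ± 3.18) came next, with the adaptor gene Grb2 at 27.3 ± 1.20, and the controls of these genes overlapped along that order. Mtor stood at 23.9 ± 0.756 CPM per kilobase. The genes for its partners followed, with Rictor of mTOR complex 2 at 18.2 ± 0.393 (place 10 of 28) and Rptor of mTOR complex 1 at place 15. The receptor genes Insr (10.8 ± 0.751) and Igf1r (10.2 ± 1.40) lay close together, with Irs2 (10.6 ± 0.766) between them, and their control libraries overlapped. Irs1, the other receptor substrate gene, was lower than Irs2 at 4.68 ± 0.400 CPM per kilobase. The lowest were the adaptor gene Shc1 (2.38 ± 0.232), Igf1 (1.07 ± 0.0520) and Slc2a4, which encodes the insulin-responsive glucose transporter (0.496 ± 0.0501). In this order of 28 genes, 11 of the 27 pairs of neighbours overlapped between control libraries, and 22 genes held the same rank under stress, with no gene moving by more than 2 places. Exon lengths came from an annotation of another build than the counts, so the order is approximate. With lengths over all annotated transcripts, 5 of the 28 moved by more than 3 places. In that annotation Irs1 shares 2822 exonic bases, and Gsk3a 820, with a gene on the opposite strand. The effect of such overlaps on the order was not tested.

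**Figure D1:**
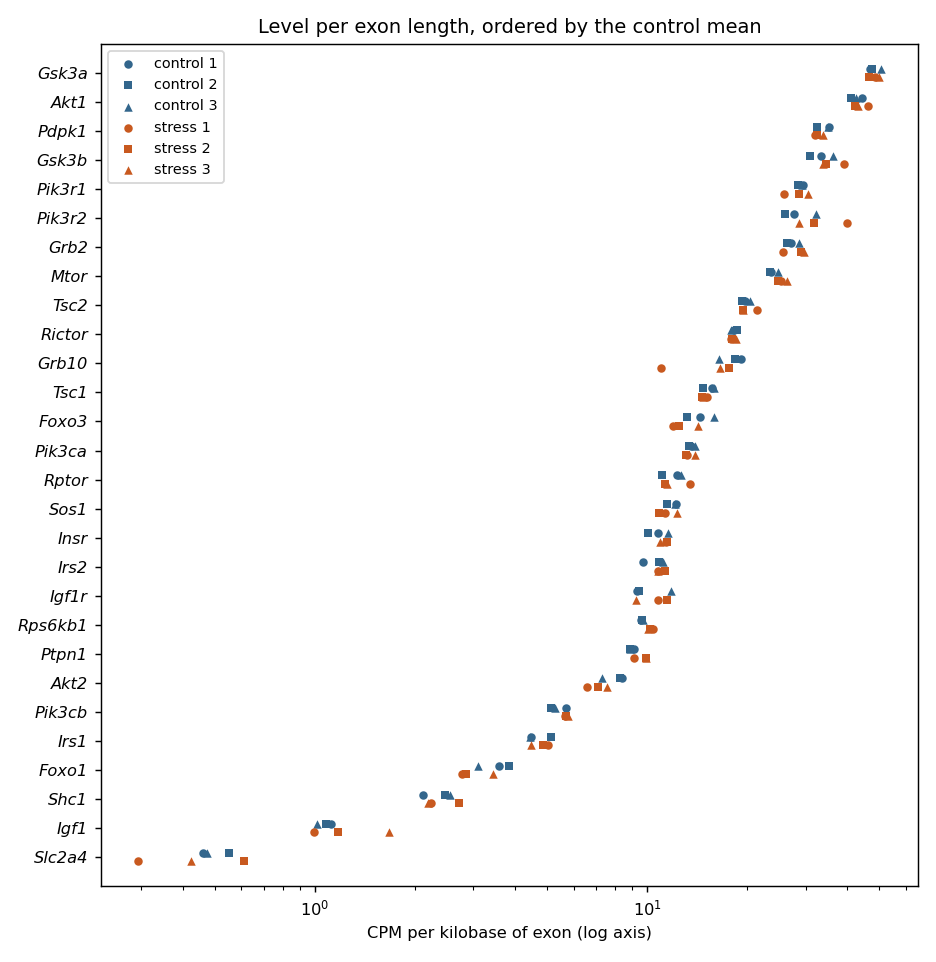
CPM per kilobase of exon (log axis) of each of the 28 genes in the 3 control and 3 stress libraries, ordered by the control mean. Gsk3a and Akt1 lead at 48.3 and 42.6 CPM per kilobase in controls, and Slc2a4 is lowest at 0.496.

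The promoter windows of these genes were examined for what they share; RefSeq's table (GRCm38.p6) held 35 windows for 26 of the 28 genes, each running from 250 bases before to 50 bases after a listed start. The windows held a median of 20 CpG dinucleotides, against 7 over all 32851 windows of the table. That table was not limited to the genes tested here, and windows of the tested genes alone were not compared. The forkhead element GTAAACA, which FoxO proteins can bind, was searched on both strands because Foxo1 and Foxo3 are members. It was present in 1 of the 35 windows (2.86%), that of Akt1, against 3.65% of all windows. The E-box CACGTG, a palindrome, was present in 2 windows (5.71%), those of the substrate genes Irs1 and Irs2, against 7.15% of all windows. The CCAAT box (CCAAT) was present in 15 windows (42.9%), from 13 genes, against 37.4% of all windows. The TATA box (TATAAA) was present in 3 windows (8.57%), against 13.6%. These are matches of letters in a reference sequence, and which start sites the amygdala uses was not measured. The 250 bases before the start are shown 5′ to 3′ for Irs1, Irs2 and Akt1, whose windows alone held a forkhead element or an E-box. Only these elements are in capitals, and all 3 genes lie on the minus strand.
Irs1, chr1:82291440-82291689: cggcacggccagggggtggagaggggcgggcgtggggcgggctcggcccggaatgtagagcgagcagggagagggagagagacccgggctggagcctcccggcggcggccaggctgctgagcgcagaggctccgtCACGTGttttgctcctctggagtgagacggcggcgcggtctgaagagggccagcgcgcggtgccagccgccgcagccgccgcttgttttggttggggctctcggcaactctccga
Irs2, chr8:11008930-11009179: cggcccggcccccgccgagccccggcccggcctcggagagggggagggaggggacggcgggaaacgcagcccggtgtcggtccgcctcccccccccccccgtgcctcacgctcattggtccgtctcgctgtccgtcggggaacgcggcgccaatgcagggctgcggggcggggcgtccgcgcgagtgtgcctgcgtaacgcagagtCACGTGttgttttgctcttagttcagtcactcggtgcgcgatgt
Akt1, chr12:112674885-112675134: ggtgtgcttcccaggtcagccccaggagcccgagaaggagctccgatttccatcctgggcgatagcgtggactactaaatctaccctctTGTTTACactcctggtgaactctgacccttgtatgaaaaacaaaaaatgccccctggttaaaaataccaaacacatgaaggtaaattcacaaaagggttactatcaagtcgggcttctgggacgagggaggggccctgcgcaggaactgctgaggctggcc

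In the comparison of stress with control, transcripts of the pathway differed little, from the receptors through Akt to mTOR and S6 kinase. The largest fitted log2 fold changes, stress minus control, were 0.26 ± 0.19 (SE) for Igf1 and -0.26 ± 0.18 for Grb10, an adaptor that dampens receptor signalling, and 20 of the 28 were under 0.1 in size, against 54.5% of all tested genes. None of the 28 passed an adjusted p of 0.05 in edgeR's quasi-likelihood test (the lowest adjusted p was 0.997), and neither did any other gene (0% called). DESeq2, limma-voom and edgeR's likelihood ratio test called 0 of the 28 as well. At an unadjusted p under 0.05 there were 0 of the 28, where 496 of all tested genes (3.37%) passed; the smallest unadjusted p of the 28 was 0.0844 in that test, for Akt2. The fitted change was above 0 for 16 of the 28 (57.1%), against 48.4% of all tested genes, and the median was 0.014 beside -0.0044 over all tested genes.

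The data bounded these differences closely for most of the genes. The 95% interval lay within 1.5-fold in either direction for 25 of the 28 (89.3%), against 69.8% of all tested genes and 71.3% of the 13608 genes in the same range of mean levels (1.32 to 289 CPM). That range was set by the lowest and highest of the 28 and held most of the 14739 tested genes. It therefore did not match the 28 on level, and the part of their level in these shares was not tested. The exceptions were Igf1, Grb10 and Slc2a4. The median SE was 0.07 on the log2 scale for the 28 and 0.12 for all tested genes. An interval that includes 0 does not show that a level was equal in the groups.

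**Figure D2:**
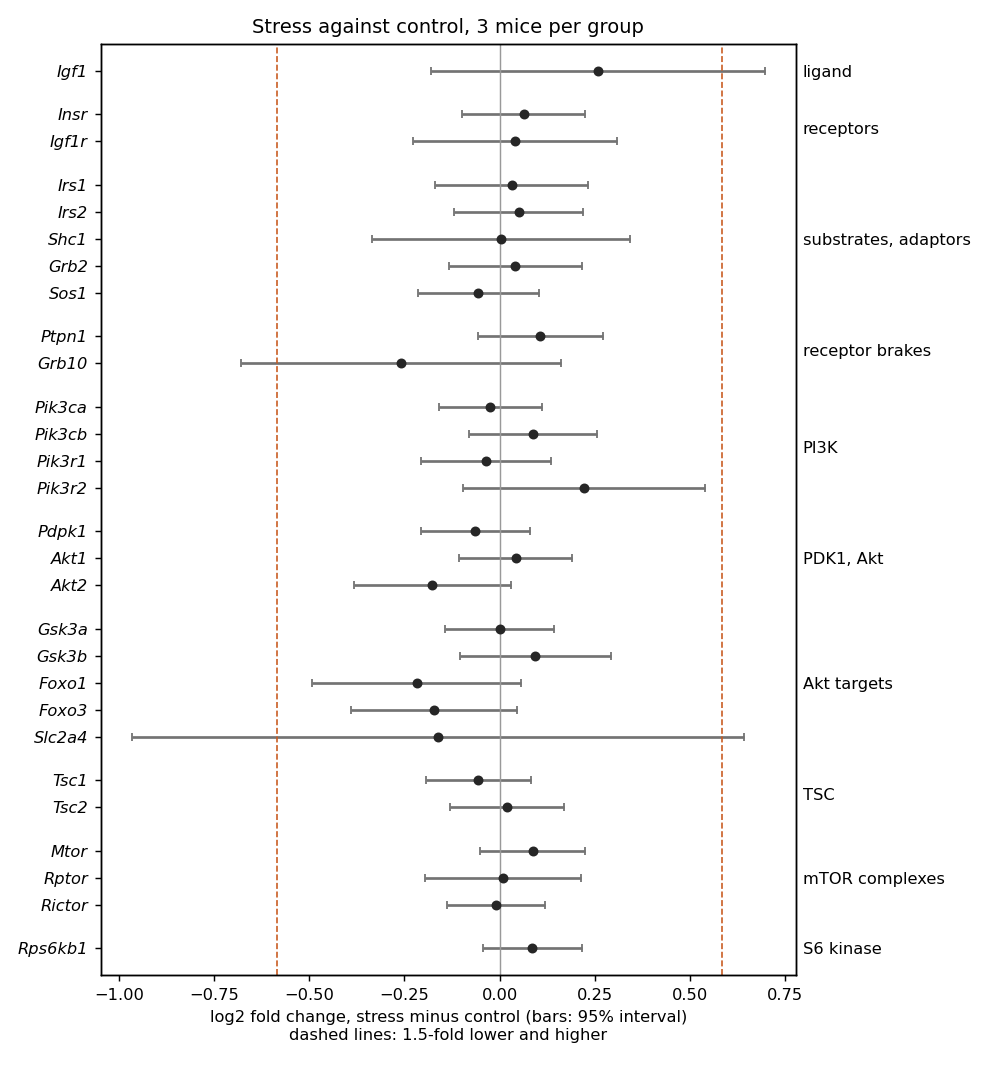
Fitted log2 fold change (stress minus control) with its 95% interval for each of the 28 genes, ordered by step of the pathway; dashed lines mark 1.5-fold. Every interval includes 0, and those of Igf1, Grb10 and Slc2a4 cross a dashed line.

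Igf1, the ligand, rested on few reads. Controls 1 to 3 gave 11.0, 10.7 and 10.02 CPM, and stressed mice 1 to 3 gave 9.86, 11.6 and 16.5 CPM (96 to 166 counts per library). Stress 3 was the highest library and stress 1 the lowest, so the groups overlapped. The log2 fold change was 0.26 with a 95% interval from -0.18 to 0.70. Without stress 3 it was 0.02, and without stress 1 it was 0.41. Microglial markers, a cell type known to make Igf1, ranged from 311 to 349 CPM in controls and from 313 to 330 CPM under stress, summed over 6 genes; their part in the Igf1 values was not tested.

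The receptor genes were nearly level. Insr, the insulin receptor gene, read 101, 93.8 and 108 CPM in controls 1 to 3, and 106, 107 and 102 CPM in stressed mice 1 to 3. The 95% interval of its difference ran from -6.56% to 16.8%. Igf1r, the receptor for Igf1, gave 106, 108 and 135 CPM in the control mice against 123, 131 and 106 CPM in the stressed mice, with a log2 fold change of 0.04 ± 0.12. The groups overlapped for both receptor genes, and the direction for Igf1r turned when single libraries were left out. The ratio of Insr to Igf1r counts within a library was 0.799 to 0.947 in controls and 0.821 to 0.965 under stress.

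Among the genes for proteins that receptors phosphorylate or recruit, none stood apart. Irs1 was measured at 40.9, 47.0 and 40.5 CPM in controls, with 46.1, 44.3 and 40.9 CPM in the stressed animals. Irs2 read 61.4, 68.7 and 70.6 CPM in controls 1 to 3, and 68.3, 71.6 and 67.9 CPM in stressed mice 1 to 3. The groups overlapped for both, with log2 fold changes of 0.03 ± 0.09 and 0.05 ± 0.07. The adaptor genes that lead to Ras were at 0.00 ± 0.15 for Shc1, 0.04 ± 0.08 for Grb2 and -0.06 ± 0.07 for Sos1, the exchange factor itself. The brakes at the receptor did not share a direction. Ptpn1, a phosphatase of the insulin receptor, gave 38.5, 37.3 and 37.4 CPM in the control mice against 38.4, 41.8 and 41.7 CPM in the stressed mice. Only stress 1 fell among the control values, and the log2 fold change was 0.11 ± 0.07.

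Grb10 was set apart by a single library. It was measured at 98.4, 94.4 and 84.6 CPM in controls, with 56.3, 90.3 and 85.2 CPM in the stressed animals. Stress 2 and stress 3 lay within the range of the controls, and stress 1 lay far below it. Stress 1 was also the library with the lowest striatal and central amygdala markers, and the part of this difference in the Grb10 level was not tested. The log2 fold change of -0.26 became -0.07 without stress 1 and -0.03 without both control 1 and stress 1.

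In PI3K, the catalytic subunit genes Pik3ca (-0.02 ± 0.06) and Pik3cb (0.09 ± 0.07) and the regulatory subunit gene Pik3r1 (-0.03 ± 0.07) were close to 0. Pik3r2, the other regulatory subunit gene, read 87.6, 82.3 and 102 CPM in controls 1 to 3, and 126, 101 and 90.4 CPM in stressed mice 1 to 3. The highest library was stress 1, and stress 2 and stress 3 lay inside the control range. The log2 fold change of 0.22 ± 0.14 was 0.08 without stress 1. The ratio of Pik3r1 to Pik3r2 counts was 2.16 to 2.61 in controls and 1.54, 2.15 and 2.56 in stress 1 to 3 (two-sided exact permutation p = 0.4, adjusted p = 0.8 over 10 pairs).

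At the level of Akt, the gene with the smallest unadjusted p of the 28 was Akt2, the paralogue best known for insulin-stimulated glucose uptake. It gave 40.6, 40.05 and 35.3 CPM in the control mice against 31.7, 34.3 and 36.5 CPM in the stressed mice. Only control 3 and stress 3 overlapped, and the fitted change was -11.5% with an interval from -23.3% to 2.10% (log2 fold change -0.18 ± 0.09). Akt1 was at 0.04 ± 0.06 and Pdpk1, which encodes the kinase that activates Akt, at -0.06 ± 0.06. The ratio of Akt1 to Akt2 counts was 2.75 to 3.25 in controls and 3.19 to 3.92 under stress (two-sided exact permutation p = 0.2, adjusted p = 0.667 over 10 pairs).

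Both FoxO genes had lower means under stress, without passing the test. Foxo1 was measured at 31.0, 33.4 and 26.8 CPM in controls, with 23.9, 24.7 and 29.8 CPM in the stressed animals, a log2 fold change of -0.22 ± 0.12. Foxo3 read 107, 97.6 and 118 CPM in controls 1 to 3, and 88.5, 92.2 and 105 CPM in stressed mice 1 to 3, a log2 fold change of -0.17 ± 0.09. For both genes stress 1 was the lowest library, stress 2 the next, and stress 3 lay among the controls. With single libraries left out, Foxo1 ranged from -0.32 (without stress 3) to -0.14 (without control 2), and Foxo3 from -0.25 (without stress 3) to -0.10 (without control 3). Without stress 1, the library low in striatal markers, the values were -0.16 and -0.12, and that of Akt2 was -0.13; the part of the tissue difference in these levels was not tested. The other Akt targets differed in pattern. The genes of glycogen synthase kinase 3 were at -0.000055 ± 0.06 for Gsk3a and 0.09 ± 0.09 for Gsk3b. Slc2a4 gave 1.29, 1.55 and 1.33 CPM in the control mice against 0.821, 1.71 and 1.19 CPM in the stressed mice. That was 8 to 17 counts per library, and the interval from -0.97 to 0.64 left its difference poorly determined at this depth.

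**Figure D3:**
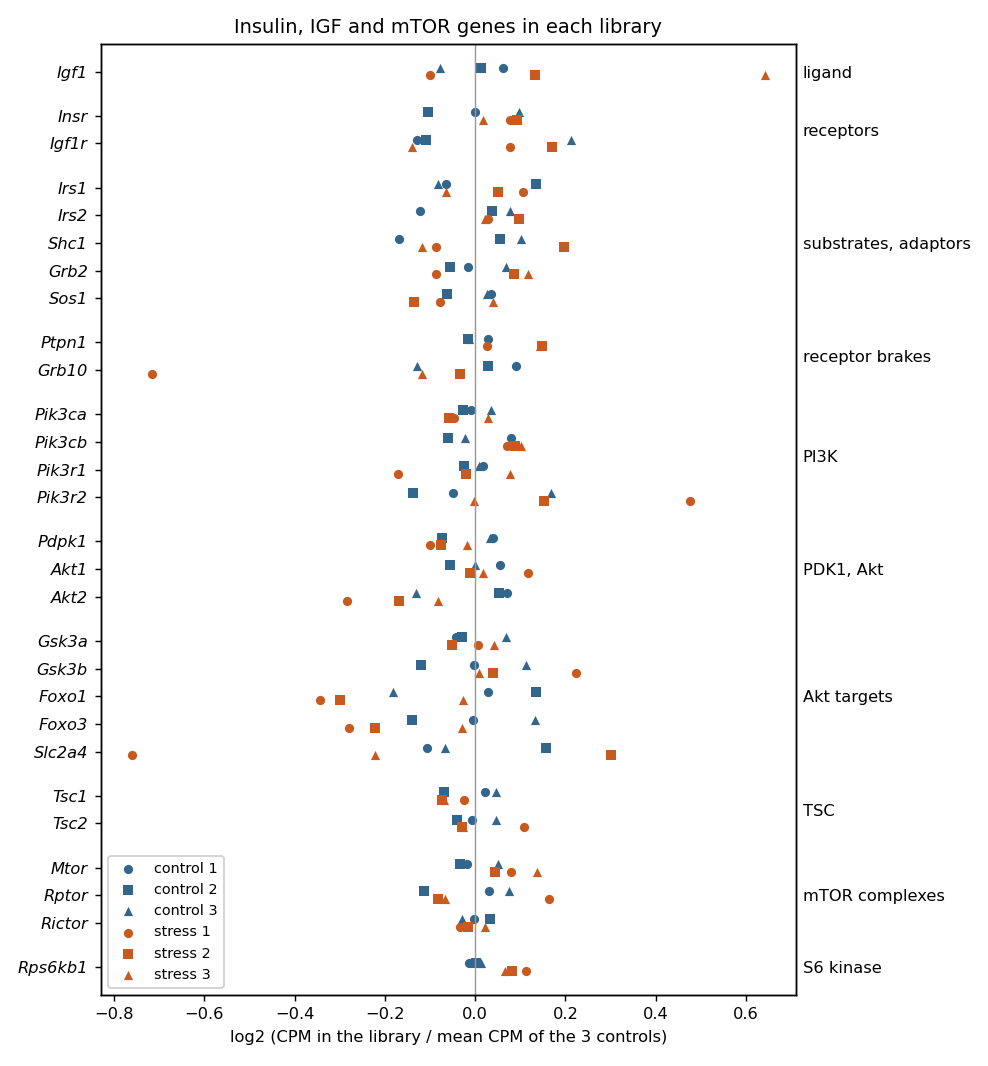
Each of the 28 genes by library, as log2 of its CPM over the mean of the 3 controls, ordered by step of the pathway. Stress 1 lies far to the left for Grb10 and Slc2a4 and to the right for Pik3r2, stress 3 lies to the right for Igf1, and only Rps6kb1 has all 3 stress libraries on one side of the controls.

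Differences were also small from TSC to S6 kinase. Tsc1 and Tsc2, whose products together restrain mTOR, were at -0.06 ± 0.06 and 0.02 ± 0.07. Mtor was measured at 208, 205 and 218 CPM in controls, with 222, 217 and 231 CPM in the stressed animals, so that stress 2 overlapped control 3. The fitted difference was 6.23%, with an interval from -3.44% to 16.9%. Rptor and Rictor, the defining subunits of the mTOR complexes, were at 0.01 ± 0.09 and -0.01 ± 0.06. Rps6kb1, the gene for the kinase that mTOR complex 1 activates, read 76.6, 77.4 and 78.0 CPM in controls 1 to 3, and 83.6, 81.8 and 80.9 CPM in stressed mice 1 to 3. It was the only gene of the 28 whose groups did not overlap, where 3.8% of all tested genes were separate with stress higher, 4.48% with stress lower and 8.28% in either direction. Its fitted difference was 6.17% with an interval from -3.03% to 16.3% (adjusted p = 0.997, edgeR). In GENCODE M21 the gene shares 155 exonic bases with Rnft1 on the opposite strand, and the strand setting of the counting is not given.

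Ratios between partner genes within a library were compared for 10 pairs. The ratio of Tsc1 to Tsc2 counts was 0.969, 0.932 and 0.950 in the control mice, against 0.866, 0.922 and 0.923 in the stressed mice. The groups did not overlap, with a log2 difference of -0.07, and the two-sided exact permutation p was 0.1, the smallest that 3 against 3 allows (adjusted p = 0.667 over the 10 pairs). Tsc2 shares 693 exonic bases with Pkd1 on the opposite strand. The ratio of Mtor to Rps6kb1 counts was 2.65 to 2.79 in controls and 2.65 to 2.86 under stress.

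The libraries differed in how the 28 genes were placed within them. Stress 1 held the lowest level for 10 of the 28 genes (35.7%), against 23.1% of all tested genes, and control 2 held the lowest for 9 (32.1%), against 14.5%. Control 3 and stress 3 each held the lowest for 1 (3.57%), against 16.5% and 17.1% of all tested genes. The median deviation of the 28 from the control mean, on the log2 scale, lay between -0.03 and 0.03 in all 6 libraries.

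The wider pathway was described with 83 further genes, of which 80 were tested. None passed an adjusted p of 0.05, and 2 of the 80 passed an unadjusted p of 0.05 (1 lower and 1 higher under stress), where 2.04% of all tested genes passed as lower and 1.33% as higher. The fitted change was above 0 for 40 and below 0 for 40, and the median was -0.0013. The one lower was Irs4, a receptor substrate gene of low level, at 45 to 65 counts in controls and 8 to 21 under stress (log2 fold change -1.73 ± 0.32, adjusted p = 0.997, edgeR). The adjusted p was 0.0279 in edgeR's likelihood ratio test, 0.355 in DESeq2, 0.985 in limma-voom and 0.997 with the replicate block in edgeR. The fold change ranged from -2.01 (without stress 3) to -1.43 (without stress 1) with single libraries left out, and was -1.23 without both control 1 and stress 1. Irs4 read 6.46, 4.36 and 4.60 CPM in controls 1 to 3, and 0.821, 1.71 and 2.09 CPM in stressed mice 1 to 3. Control 1 and stress 1 also had the highest (1786 CPM) and lowest (260 CPM) summed striatal and central amygdala markers. The sums were closer together in control 2 and control 3 (866 and 1051 CPM) and stress 2 and stress 3 (828 and 970 CPM). The part of this tissue difference in the Irs4 level was not tested. The one higher was Ddit4, which encodes a stress-induced inhibitor of mTOR complex 1 and is known to be raised by glucocorticoids. It gave 18.6, 16.8 and 15.4 CPM in the control mice against 17.2, 25.2 and 23.6 CPM in the stressed mice. Stress 1 lay among the controls and the other stress libraries above them; the log2 fold change was 0.38 ± 0.15 (adjusted p = 0.997, edgeR). With single libraries left out it ranged from 0.28 (without stress 2) to 0.53 (without stress 1), at adjusted p of 0.807 to 1 in edgeR. Its unadjusted p in edgeR rose above 0.05 without control 2 (0.0818), control 3 (0.113), stress 2 (0.129) or stress 3 (0.112), and with library size alone (0.0531) or the replicate block (0.0693). Over the 17 alternatives the smallest unadjusted p was 0.00188, in edgeR's quasi-likelihood test. In the alternatives other than single left-out libraries, the Ddit4 log2 fold change ranged from 0.36 to 0.60.

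The other genes of the wider pathway with the smallest unadjusted p had small differences. The glucose transporter gene Slc2a1, also a marker of brain endothelium, averaged 78.1 ± 10.2 CPM in control mice and 66.4 ± 4.66 CPM in stressed mice (SD, n = 3), and its fitted difference was -0.23 ± 0.10 on the log2 scale (SE), or -0.14 without control 3. The summed endothelial markers, Slc2a1 among them, were 150 to 203 CPM in controls and 148 to 160 CPM under stress. Grb14, an inhibitory adaptor like Grb10, was at 0.27 ± 0.12, Map2k2, a kinase of the Ras branch, at 0.13 ± 0.07, and Sos2 at -0.15 ± 0.08, or -0.08 without control 1.

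Igf2, a growth factor that the choroid plexus and meninges are known to secrete, varied widely between libraries within each group. It was measured at 52.3, 85.4 and 30.9 CPM in controls, with 9.86, 95.4 and 15.8 CPM in the stressed animals. The libraries with the highest choroid plexus markers, control 1, control 2 and stress 2, were also the 3 highest for Igf2 (log2 fold change -0.48, interval -3.21 to 2.25). The value rested on single libraries: it was -2.13 without stress 2 (adjusted p = 0.762, edgeR), -0.77 without control 3, -0.10 without stress 3, -0.03 without control 2 and -0.02 without stress 1. It was -1.07 in limma-voom, -0.98 with the replicate block, -0.16 with the choroid plexus covariate and -0.07 without both control 1 and stress 1. Summed levels of 6 meningeal fibroblast markers were 32.3, 45.2 and 57.1 CPM in controls 1 to 3. They were 109, 37.7 and 31.0 CPM in stressed mice 1 to 3, with Dcn alone at 95.4 CPM in stress 1. Of these markers, 5 had a fitted change below 0 and 1 above 0. The part of choroid plexus or meningeal RNA in the Igf2 level was not tested.

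**Figure D4:**
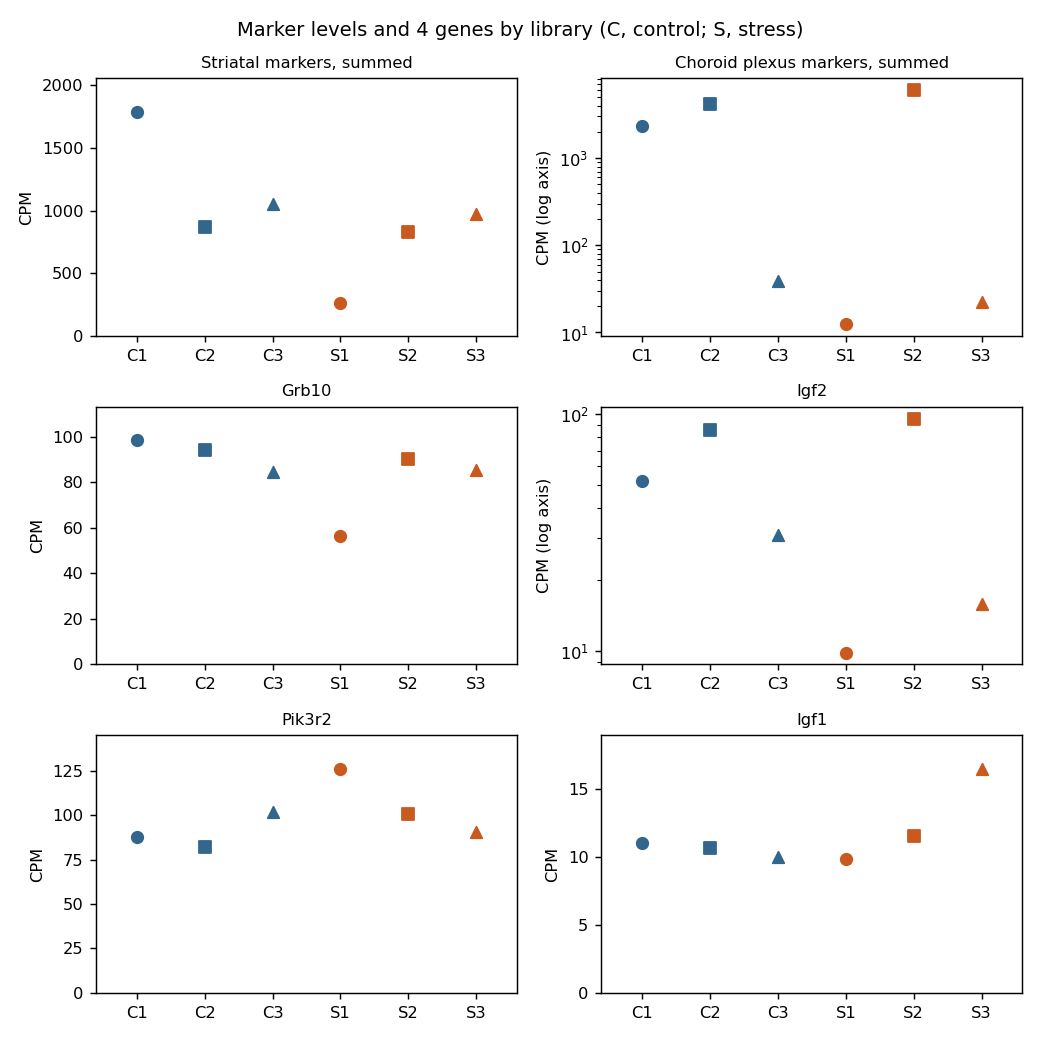
CPM by library (C1 to C3 controls, S1 to S3 stress) for the summed striatal and choroid plexus markers and for Grb10, Igf2, Pik3r2 and Igf1; the choroid plexus and Igf2 panels have log axes. Stress 1 is lowest for the striatal markers (260 CPM) and for Grb10 (56.3 CPM) and highest for Pik3r2 (126 CPM), and C1, C2 and S2 are highest for the choroid plexus markers and for Igf2.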

How the data were processed

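The values deposited by the authors are raw read counts for each gene symbol, in 1 table per library. The submitters' processing notes list STAR 2.7.7a, HTSeq 0.13.5, FastQC 0.12.1, the build mm39 and edgeR 3.42.4, with no roles. The sources used here name neither the annotation nor the strand setting. In GENCODE M21 (GRCm38), exons of 8 of the 28 genes overlap another gene on the opposite strand (Irs1, Irs2, Pik3r2, Gsk3a, Foxo1, Tsc2, Rptor and Rps6kb1), so their reads could be mixed. Rows for unassigned reads were kept out of library sizes. Of the reads, 53 to 57.4% were assigned to no counted feature, 6.97 to 8.16% had several alignments and 0.162 to 0.194% were ambiguous. The lowest chi-square per gene between libraries was 2.95, above sampling noise.

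Tests used edgeR 4.0.16 in R 4.3.3 (filterByExpr with minimum count 10 and minimum total 15, TMM, robust quasi-likelihood F test, Benjamini-Hochberg over 14739 genes, threshold 0.05); DESeq2 1.42.0 and limma 3.58.1 served as alternatives. CPM use TMM-scaled library sizes. Each SE was derived from the fitted log2 difference and its F statistic, and each 95% interval from that SE and the t distribution. CPM per kilobase used the exon union of coding transcripts in the GENCODE M21 basic set. The procedure was tested on simulated counts, and the outcome is not reported here.

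The members and lists were chosen with earlier results of these data known. Values per library are given for 7 genes fixed by name, for the 6 of the 28 with the smallest unadjusted p and for any with separate groups; Grb10 was added after its values were seen. Of the wider pathway, the 6 with the smallest p, Irs4 and Igf2 are named; 2 other genes that the rule takes are not reported here. The 17 alternatives covered normalization, filter, test, replicate block, a choroid plexus covariate and libraries left out.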

Additional observations from a re-analysis of the deposited data

How the results depend on the processing

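None of the 28 genes passed an adjusted p of 0.05 in any of the 17 alternatives, and 18 kept their direction in all of them. Over all genes the count of 0 became 2 with DESeq2 and 4 with edgeR's likelihood ratio test, and 0 to 1 with single libraries left out (1 without control 3). The count of the 28 at an unadjusted p under 0.05 ranged from 0 to 3 with single libraries left out: Akt2 and Foxo1 without control 3, Igf1 without stress 1, and Pik3r2, Foxo1 and Foxo3 without stress 3. It was 0 in the other alternatives. Of all tested genes, 777 of 14968 passed that limit without control 3 in edgeR's quasi-likelihood test. Without stress 1 it was 379 of 14946, and without stress 3 it was 598 of 14969. The median of the 28 ranged from -0.0065 to 0.042 with single libraries left out and from -0.0086 to 0.021 otherwise. Correlations of deviations between control and stress libraries of the same replicate number were -0.318, 0.53 and 0.277. Those between libraries of unlike number ran from -0.638 to 0.484, so whether the numbers pair the libraries was not settled. With the replicate block 0 of the 28 and 0 of all genes passed, the median was 0.012, and no call changed.

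The direction turned for 10 genes, all with fitted differences under 0.1 in size except Slc2a4, at -0.16; the cause was not tested. With single libraries left out, ranges that crossed 0 were -0.023 to 0.16 for Igf1r, -0.0071 to 0.11 for Irs1, -0.0049 to 0.091 for Irs2, -0.098 to 0.062 for Shc1, -0.094 to 0.029 for Pik3r1, -0.022 to 0.035 for Gsk3a, -0.45 to 0.059 for Slc2a4, -0.028 to 0.047 for Tsc2, -0.074 to 0.057 for Rptor and -0.025 to 0.015 for Rictor. Without both control 1 and stress 1 the values were -0.037 for Igf1r, -0.038 for Irs1, -0.030 for Shc1, 0.038 for Pik3r1, 0.0084 for Slc2a4, -0.031 for Tsc2, -0.059 for Rptor and 0.0012 for Rictor. With the choroid plexus covariate they were -0.046 for Rptor, 0.020 for Slc2a4 and -0.011 for Tsc2. With library size alone they were -0.0087 for Rptor and -0.012 for Shc1. Gsk3a, at -0.000055, was 0.0074 with RLE size factors, 0.0026 without a filter, 0.0075 with DESeq2, 0.00038 with limma-voom, 0.000058 with the likelihood ratio test and 0.00021 with the replicate block. Counts were lowest for Slc2a4, Shc1 and Igf1, at 8 to 17, 81 to 103 and 96 to 166 per library.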

Other observations

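The insulin genes themselves fell below the filter. Ins2 had 6 counts in control 1, 11 in control 2, 6 in stress 2 and 0 in each of the other libraries, so its reads came only from the libraries with the highest choroid plexus markers; a library with 0 counts allows up to 0.308 CPM (3 counts, counting error only). Ins1 had 1 count in control 2 and 0 in the other libraries. Insrr, the insulin receptor-related receptor gene, had 1, 2 and 1 counts in controls and 0 in each stress library. Igfbp2, which encodes an IGF-binding protein, gave 37.5, 67.8 and 18.1 CPM in the control mice, and 12.01, 72.7 and 14.7 CPM in the stressed mice, highest in the same 3 libraries as Igf2.

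Outside the genes chosen by rule, and named after their values were seen, Castor1, an arginine sensor upstream of mTOR complex 1, gave 2.19, 2.04 and 2.25 CPM in the control mice, and 1.75, 1.71 and 1.59 CPM in the stressed mice. It rested on 16 to 22 counts per library (log2 fold change -0.36 ± 0.24, SE). Of the 80 further genes tested, 5 had groups that did not overlap (3 lower and 2 higher under stress), beside 4.48% and 3.8% of all tested genes.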
